A study of Mus musculus with 4 samples.

Results

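The collagen chain genes are the genes whose symbol follows the pattern Col, a type number, a and a chain number. There were 44 of them among the 55359 genes listed, and all 44 had at least 1 read. They fall into 11 fibrillar, 9 fibril-associated, 9 network-forming and 15 other members. The cells were primary cardiac fibroblasts from hearts of wild-type mice aged P1 to P3, which carried either overexpressed Nr4a3 (OENr4a3) or a control for overexpression (OECtrl), with 2 libraries in each group. The titles place collection at day 10, whereas the design text places it at day 7 of reprogramming towards induced cardiomyocytes. Neither the vector and its promoter nor the content of the control is stated in the labels. The study asked how overexpressed Nr4a3, an orphan nuclear receptor, hinders that reprogramming.

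Collagens are proteins of the extracellular matrix whose chains wind around each other into a rope-like helix, built from copies of 1 chain or from different chains. Fibrillar collagens pack into the cross-banded fibrils that give the heart wall its tensile strength, and fibril-associated collagens sit on the surface of those fibrils. Network-forming collagens make sheets such as the basement membrane, and the other members include beaded filaments, anchoring fibrils, the multiplexins of the basement membrane zone and collagens that span the cell membrane. Fibroblasts are the main source of fibrillar collagen in the heart.

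The libraries held 18441428 and 18287644 counts in OENr4a3, and 14275501 and 16461333 counts in OECtrl. Nr4a3 had 3184 and 3196 reads in the OENr4a3 libraries, against 36 and 31 in the OECtrl libraries. All 7 fibroblast markers examined were detected. Their summed level was 3743 and 3666 CPM in OENr4a3 and 4139 and 4611 in OECtrl (CPM, read counts relative to the scaled library size). Vim gave most of that sum (2519 and 2412 CPM in OENr4a3, 2868 and 3404 CPM in OECtrl). The 6 cardiomyocyte markers summed to 7.05 and 4.51 CPM in OENr4a3 and to 2.35 and 0.897 CPM in OECtrl. Myh6 gave most of that sum in both OENr4a3 libraries (5.45 and 2.95 CPM) and stood at 1.31 and 0.0598 CPM in OECtrl. The labels leave it unsaid whether replicates were separate cultures, so the p-values reflect the spread between 4 libraries alone, and that spread may be technical. With 2 libraries against 2, an exact permutation test of a single value cannot go below p = 0.333, so the tests below come from a fit across all genes.

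Mouse collagen genes often stand in pairs, and several of the pairs carry the results below. Col4a1 and Col4a2 lie head to head on chromosome 8, with start sites 21 bases apart. Col4a3 and Col4a4 lie head to head on chromosome 1, with start sites 72 bases apart, and Col4a5 and Col4a6 on chromosome X, with 1308 bases between them. The 300-base start windows of 35 members were found in RefSeq's promoter table (GRCm38.p6, from 250 bases before to 50 after the start). The windows of Col4a2 (chr8:11312555-11312854, plus strand) and Col4a4 (chr1:82586800-82587099, minus strand) are shown because each serves a pair. In the first, capitals mark the 78 bases shared with the start window of Col4a1, and in the second the 71 bases between the start sites of Col4a4 and Col4a3.
Col4a2: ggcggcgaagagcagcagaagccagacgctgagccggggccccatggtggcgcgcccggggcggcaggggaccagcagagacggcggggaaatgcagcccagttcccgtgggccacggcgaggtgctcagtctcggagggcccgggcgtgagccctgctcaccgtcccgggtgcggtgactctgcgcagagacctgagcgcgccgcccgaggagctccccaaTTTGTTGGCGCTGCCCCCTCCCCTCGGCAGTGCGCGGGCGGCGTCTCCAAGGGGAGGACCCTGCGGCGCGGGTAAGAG
Col4a4: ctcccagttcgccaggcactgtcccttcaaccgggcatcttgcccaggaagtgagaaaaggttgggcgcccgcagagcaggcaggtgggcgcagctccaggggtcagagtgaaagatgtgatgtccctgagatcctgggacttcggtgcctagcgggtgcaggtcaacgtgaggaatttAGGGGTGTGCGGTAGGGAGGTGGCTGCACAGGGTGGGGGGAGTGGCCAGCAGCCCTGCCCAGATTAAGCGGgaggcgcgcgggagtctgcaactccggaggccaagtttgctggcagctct

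Start windows were also searched on both strands for 4 short motifs, namely the NBRE (AAAGGTCA, the element that NR4A receptors bind as monomers), the CCAAT box (CCAAT), the GC box (GGGCGG) and the TATA box (TATAAA). No window was found for Col1a1, Col2a1, Col4a3, Col5a2, Col9a3, Col12a1, Col14a1, Col22a1 and Col26a1, so the starts of these members were not searched. The NBRE letters were in the windows of Col23a1 and Col24a1. That is 2 of 38 windows of the members, against 495 of 32851 windows in the whole table (1.51%). CCAAT was in 13 of the 38 windows (37.41% of all windows), GGGCGG in 23 (35.66%) and TATAAA in 5 (13.62%). The members' windows had a median GC content of 59.85%, against 52.7% for all windows. Col23a1 (chr11:51289670-51289969, plus strand) is shown as a window with the NBRE letters, which are in capitals. Col11a1 (chr3:114030290-114030589, plus strand) and Col1a2 (chr6:4505368-4505667, plus strand) are shown as fibrillar members whose levels differed in opposite directions, with the CCAAT and GC box letters of either strand in capitals. A match is a description of the letters and not a bound site.
Col23a1: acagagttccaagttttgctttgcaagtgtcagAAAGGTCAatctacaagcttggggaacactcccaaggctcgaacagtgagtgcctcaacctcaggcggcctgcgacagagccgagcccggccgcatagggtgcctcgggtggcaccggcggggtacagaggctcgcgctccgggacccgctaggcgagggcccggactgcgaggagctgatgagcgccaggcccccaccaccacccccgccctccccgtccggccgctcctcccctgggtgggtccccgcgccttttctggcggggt
Col11a1: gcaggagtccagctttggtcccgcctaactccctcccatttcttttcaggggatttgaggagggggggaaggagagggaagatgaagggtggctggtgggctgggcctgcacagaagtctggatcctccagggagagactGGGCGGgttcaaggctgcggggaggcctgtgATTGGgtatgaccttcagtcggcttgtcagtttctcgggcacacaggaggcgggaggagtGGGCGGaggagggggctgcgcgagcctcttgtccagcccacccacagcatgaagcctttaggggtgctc
Col1a2: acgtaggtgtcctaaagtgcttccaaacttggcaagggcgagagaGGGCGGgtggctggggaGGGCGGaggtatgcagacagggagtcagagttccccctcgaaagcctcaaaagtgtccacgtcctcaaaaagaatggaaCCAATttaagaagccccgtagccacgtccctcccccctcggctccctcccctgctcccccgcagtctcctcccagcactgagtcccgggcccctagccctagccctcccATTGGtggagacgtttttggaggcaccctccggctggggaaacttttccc

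Collagen transcripts made up 3.85% and 3.87% of all counts in the OENr4a3 libraries, against 3.55% and 3.19% in the OECtrl libraries. The share was thus 3.86% ± 0.0124 in OENr4a3 and 3.37% ± 0.252 in OECtrl (SD, n = 2 each), a ratio of 1.15, and the groups did not overlap. Fibrillar members took 2.14% ± 0.00653 in OENr4a3 and 2.00% ± 0.0976 in OECtrl. Network-forming members took 1.49% ± 0.00645 in OENr4a3 and 1.21% ± 0.132 in OECtrl. The shares of fibril-associated members were 0.148% ± 0.00226 in OENr4a3 and 0.0811% ± 0.0102 in OECtrl. Their ratio of 1.82 was the largest among the 4 classes. Members of the other class, at 0.0825% in OENr4a3 and 0.0812% in OECtrl, overlapped between the groups. Col4a1, Col3a1, Col5a2, Col1a1, Col4a2 and Col1a2 together took 81.2% and 81.1% of the collagen reads in OENr4a3, and 83.5% and 83.8% in OECtrl. Long genes tended to be higher in OENr4a3, as described below, and that trend was not removed from these shares. For these 6 members the trend alone ran from 0.14 (Col1a1 and Col4a2) to 0.36 (Col1a2) on the log2 scale. RNA was taken from whole cultures, so fewer cells of a type and less RNA per cell cannot be told apart.

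**Figure D1:**
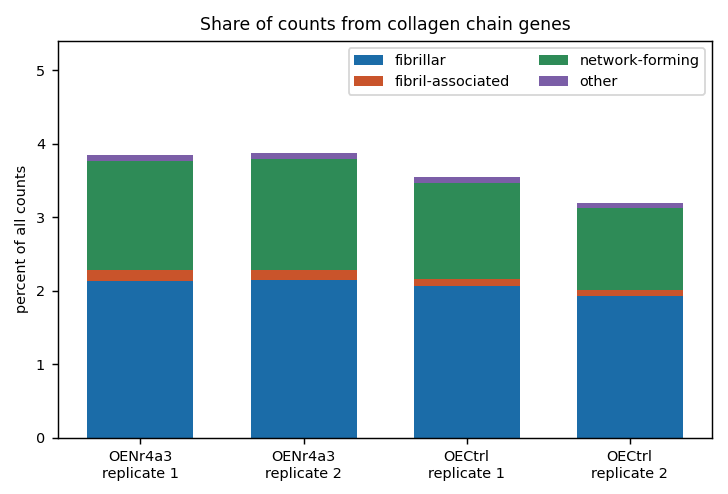
Share of all counts that came from collagen chain genes in each library, in percent, stacked by class, with 1 bar per library. Both OENr4a3 bars (3.85% and 3.87%) end above both OECtrl bars (3.55% and 3.19%), and fibrillar and network-forming members fill nearly all of each bar. The trend on gene length is not removed.

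Per kilobase of deposited exonic length, Col4a1 ranked first in OENr4a3 with 1061 ± 7.1 CPM per kilobase, against 834 ± 95.2 in OECtrl (SD, n = 2 each). Col1a1 followed with 707 ± 8.88 CPM per kilobase in OENr4a3 and 563 ± 45.0 in OECtrl, and Col3a1 stood beside it with 695 ± 9.54 in OENr4a3 and 700 ± 24.5 in OECtrl. Col4a2 (688 ± 13.9 in OENr4a3, against 533 ± 79.7 in OECtrl) stood within 1 SD of Col3a1 in OENr4a3. This order depends on the length used. The exonic length is 9816 bases for Col3a1 and 7464 for Col4a1, whereas their longest coding transcripts in GENCODE M21 have 5564 and 6615 bases. Per base of the longest coding transcript, Col3a1 over Col1a1 was 1.54 and 1.60 in the OENr4a3 libraries. Within the other classes the most abundant per kilobase in OENr4a3 were Col14a1 among fibril-associated members (88.2 ± 0.238, against 47.2 ± 6.52 in OECtrl) and Col6a1 among the rest (96.2 ± 1.82, against 103 ± 15.5 in OECtrl). In OENr4a3, 9 members were above 100 CPM per kilobase. At the other end, 12 of the tested members averaged under 10 CPM in OENr4a3, and 1 of those 12 was called.

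**Figure D2:**
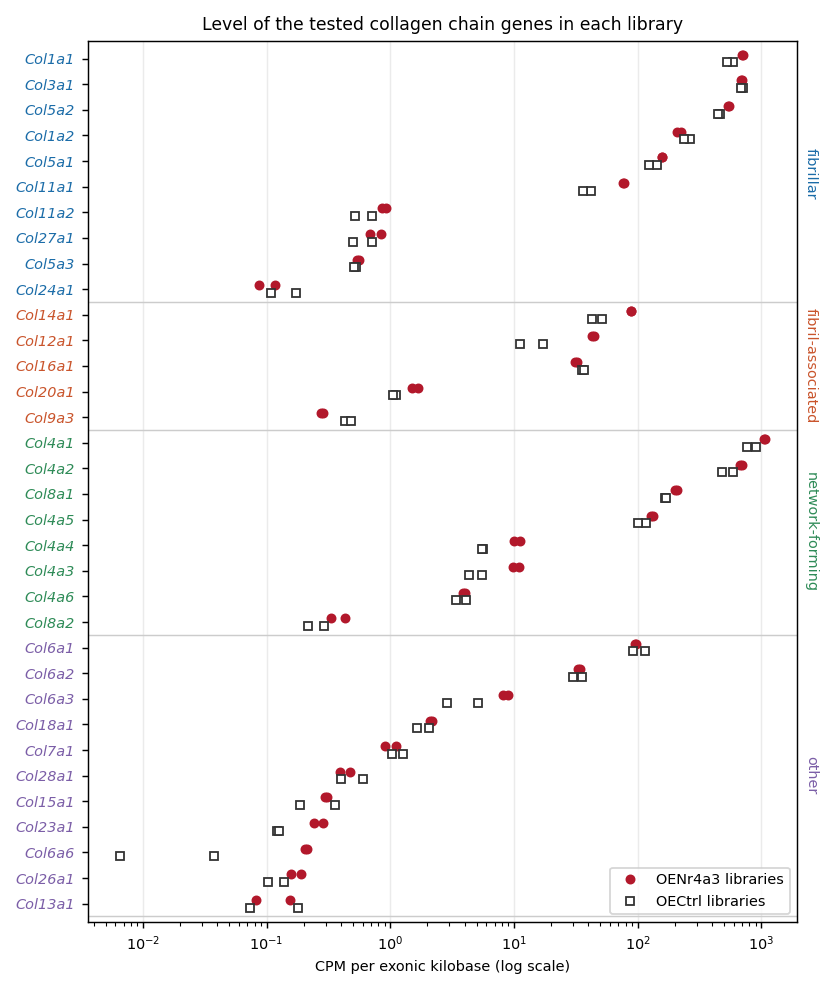
Level of the 34 tested collagen chain genes in each library, in CPM per exonic kilobase on a log axis, grouped by class and ordered within a class by the OENr4a3 mean. Filled circles are the 2 OENr4a3 libraries and open squares the 2 OECtrl libraries, and levels run from under 0.01 (Col6a6 in 1 OECtrl library) to 1066 (Col4a1 in OENr4a3).

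Of the 44 members, 34 passed the filter on low counts and were tested with edgeR's quasi-likelihood test, adjusted by Benjamini-Hochberg over all 15029 genes tested. Called as higher in OENr4a3, at an adjusted p under 0.05, were 12 members, which is 35.3% of the 34, whereas 12.0% of all tested genes were called higher. None was called lower by edgeR, against 11.0% of all tested genes, and the same count was 1 at an unadjusted p under 0.05, 0 in DESeq2 and 0 in limma-voom. Without OENr4a3 replicate 1 or replicate 2, 7 were called higher, and without either OECtrl library 2 were called lower. The median log2 fold change of the 34 was 0.27, against -0.01 for all tested genes. The CPM of the groups did not overlap and was higher in OENr4a3 for 21 of the 34 (34.0% of all tested genes), and lower for 3 (34.2%). By class, 3 of 10 tested fibrillar members were called higher (median log2 fold change 0.26), 2 of 5 fibril-associated (0.54), 5 of 8 network-forming (0.36) and 2 of 11 other members (0.15). The classes were not tested against each other.

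Gene length has to be read beside these counts. The members are long, with a median exonic length of 7542.5 bases in the 34 tested, against 4126 for all tested genes. Across the 15029 genes the log2 fold change increased with exonic length (Spearman's rho 0.42, across genes, which share the same 4 libraries), and medians ran from -0.435 in the shortest of 20 length bins to 0.426 in the longest. The difference between the 2 OECtrl libraries (replicate 1 minus 2) also followed length, with a rho of 0.356, whereas that between the 2 OENr4a3 libraries had a rho of -0.039. With the trend of each library on exonic length removed, 7 of the 34 members were called higher (20.6%, against 9.08% of all tested genes) and 3 lower (8.82%, against 10.9%), while 19.9% of all tested genes were called in either direction. Their median log2 fold change was then 0.06, against -0.02 for all tested genes. By class the medians were then -0.01 for fibrillar, 0.48 for fibril-associated, 0.20 for network-forming and 0.02 for other members. Whether the trend is technical was not tested, and where its removal changes a call or a count of calls, the value with it removed is given too.

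**Figure D3:**
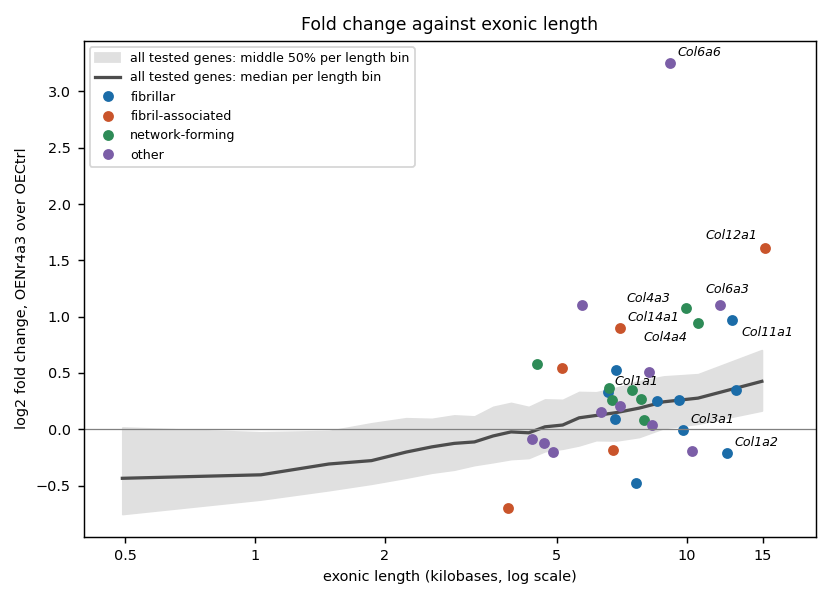
Log2 fold change of OENr4a3 over OECtrl against exonic length in kilobases (log axis). Points are the 34 tested collagen chain genes coloured by class. The line and band are the median and the middle 50% of all tested genes in 20 length bins, so members on the line differ as other genes of their length do. Col6a6, Col12a1, Col4a3, Col6a3, Col4a4, Col11a1 and Col14a1 are among the members above the band. Col1a2 (-0.21), Col3a1 (-0.01), Col7a1 and Col16a1 are among those below it.

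Type I collagen is the main fibril collagen of the heart, and its helix normally holds 2 chains from Col1a1 and 1 from Col1a2. Col1a1 (chr11:94936224-94953042, plus strand, GENCODE M21 on GRCm38, as for all gene positions here) had 4683 and 4600 CPM in OENr4a3, against 3903 and 3485 CPM in OECtrl. It rose by a log2 fold change of 0.33 ± 0.0865 (SE; adjusted p = 0.0265, edgeR's quasi-likelihood test), and the groups did not overlap. This call was lost when the length trend was removed (0.19, adjusted p = 0.0741) and without either OENr4a3 library (adjusted p = 0.283 without replicate 1 and 0.248 without replicate 2). Col1a2 (chr6:4504814-4541544, plus strand) had 2607 and 2783 CPM in OENr4a3, against 3269 and 2973 CPM in OECtrl. Both OENr4a3 values lay below both OECtrl values, at a log2 fold change of -0.21 ± 0.0881 that did not pass the test (95% interval -0.41 to -0.01, adjusted p = 0.108). With the length trend removed it was called lower (-0.58, adjusted p = 0.000503), and so it was without either OECtrl library (-0.14, adjusted p = 0.0428 without replicate 1, and -0.28, adjusted p = 0.00186 without replicate 2).

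Col3a1 (chr1:45311538-45349706, plus strand), the chain of type III collagen, which mixes with type I in the fibrils of soft tissues, measured 6754 and 6887 CPM in OENr4a3 and 7045 and 6705 CPM in OECtrl. The groups overlapped, at a log2 fold change of -0.01 (95% interval -0.18 to 0.16, adjusted p = 0.929). Col3a1 was called lower once the length trend was removed (-0.29, adjusted p = 0.0141). Of these 3 chains of the main fibrils only Col1a1 passed the test as fitted, whereas Col1a2 and Col3a1 passed it, as lower, with the length trend removed.

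Types V and XI are minor fibrillar collagens that lie inside type I fibrils and limit their diameter. Col5a2 (chr1:45374321-45503282, minus strand) is a neighbour of Col3a1, the 2 genes ending 24.6 kilobases apart. It had 5289 and 5172 CPM in OENr4a3, against 4413 and 4295 CPM in OECtrl, and rose by a log2 fold change of 0.26 ± 0.0778 (SE, adjusted p = 0.0382). That difference was gone once the length trend was removed (-0.01, adjusted p = 0.967), and the call also failed in DESeq2 (adjusted p = 0.0734) and when OENr4a3 replicate 1 (0.417) or replicate 2 (0.359) was left out. Col5a1, its partner chain, had 1345 and 1349 CPM in OENr4a3 and 1220 and 1050 CPM in OECtrl, without overlap but short of the threshold (0.25, adjusted p = 0.093, and 0.02 with the length trend removed). Col5a1 was called higher without either OECtrl library (0.36, adjusted p = 0.000115 without replicate 1, and 0.14, adjusted p = 0.0433 without replicate 2). Col5a3, a rarer chain of type V, was at 3.76 ± 0.105 CPM in OENr4a3 and 3.53 ± 0.0909 CPM in OECtrl (SD, n = 2 each; log2 fold change 0.09, adjusted p = 0.8).

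Col11a1 (chr3:114030540-114220718, plus strand), a chain of type XI collagen best known from cartilage, rose the most among fibrillar members. It had 966 and 984 CPM in the OENr4a3 libraries, against 538 and 458 CPM in the OECtrl libraries. The log2 fold change was 0.97 ± 0.103 (SE, adjusted p = 0.000467), and it stayed called with the length trend removed (0.60, adjusted p = 0.000378). Its partner Col11a2 was scarce, at 6.39 and 5.95 CPM in OENr4a3 and 3.60 and 4.91 CPM in OECtrl, and did not pass the test (0.53, adjusted p = 0.109), except without OECtrl replicate 2 (0.78, adjusted p = 0.0455). Col2a1, the main cartilage fibril collagen, had 0 reads in both OENr4a3 libraries, against 3 and 1 in the OECtrl libraries. Of the 7 chondrocyte markers, Cnmd had 0 reads in every library and Matn1 at most 1. Hapln1 had 154 and 181 reads in OENr4a3 and 11 and 13 in OECtrl, and Acan 21 and 54 in OENr4a3 and 7 and 9 in OECtrl. Sox9 did not differ, with 168 and 214 reads in OENr4a3 and 143 and 187 in OECtrl (0.00, adjusted p = 0.994). Comp had 7 and 5 reads in OENr4a3 and 4 and 5 in OECtrl, and Matn3 0 and 8 in OENr4a3 and 9 and 4 in OECtrl. The summed level of the 7 markers was 19.3 and 25.7 CPM in OENr4a3 and 12.0 and 13.0 CPM in OECtrl. The part of such cells in the Col11a1 difference was not tested. The fibrillar chains Col27a1 (0.35, adjusted p = 0.246) and Col24a1 (-0.48, adjusted p = 0.471) averaged at most 10.0 CPM in either group and overlapped between the groups, and Col27a1 was called higher without OECtrl replicate 1 (0.64, adjusted p = 0.0276).

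Fibril-associated collagens have interrupted helices and link fibrils to other matrix molecules. Col12a1 (chr9:79598991-79718831, minus strand), a large collagen of tendon and of connective tissue under tension, had 673 and 649 CPM in OENr4a3, against 261 and 173 CPM in OECtrl. Both OENr4a3 libraries were more than 2-fold above both OECtrl libraries. It rose by a log2 fold change of 1.61 ± 0.167 (SE, 95% interval 1.23 to 1.98, adjusted p = 0.000431), a fold of 3.05. With an exonic length of 15228 bases it is the longest tested member, and with the length trend removed the log2 fold change was 1.20 (adjusted p = 3.9e-05). The 2 OECtrl libraries differed more than the 2 OENr4a3 libraries, and the log2 fold change was 1.94 without OECtrl replicate 1 and 1.34 without OECtrl replicate 2.

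Col14a1 (chr15:55307750-55520803, plus strand), which binds fibrils together with decorin, had 617 and 620 CPM in OENr4a3 and 363 and 299 CPM in OECtrl. It rose by a log2 fold change of 0.90 ± 0.111 (SE, adjusted p = 0.0011) and remained called with the length trend removed (0.75, adjusted p = 0.000244). Col16a1, which connects matrix networks with the cell surface, went the other way in level, at 220 and 211 CPM in OENr4a3 and 240 and 249 CPM in OECtrl. The groups did not overlap, yet it did not pass the test (-0.18, adjusted p = 0.183), and it was called lower without OECtrl replicate 1 (-0.21, adjusted p = 0.01) and once the length trend was taken out (-0.33, adjusted p = 0.0198). Col20a1 had 7.71 and 8.57 CPM in OENr4a3 and 5.74 and 5.44 CPM in OECtrl (0.54, adjusted p = 0.0561, and 0.0407 without OECtrl replicate 1). Col9a3, a chain of the cartilage collagen type IX, had 20 and 19 reads in OENr4a3 and 24 and 31 in OECtrl (-0.70, adjusted p = 0.186).

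Type IV collagen forms the mesh of basement membranes, and all 6 of its chains had a log2 fold change above 0, of which Col4a6 turned to -0.12 with the length trend removed and Col4a5 to -0.06 with the trend on transcript length removed. The 2 ubiquitous chains are also the most abundant. Col4a1 (chr8:11198423-11312826, minus strand) had 7960 and 7885 CPM in OENr4a3, against 6725 and 5720 CPM in OECtrl, and rose by a log2 fold change of 0.35 ± 0.0924 (SE, adjusted p = 0.0273). Col4a2 (chr8:11312805-11449287, plus strand) had 4490 and 4619 CPM in OENr4a3, against 3901 and 3155 CPM in OECtrl, and rose by 0.37 ± 0.105 (SE, adjusted p = 0.035). Neither pair of groups overlapped, and the 2 genes, whose start windows share the bases shown above, had nearly the same log2 fold change. Both calls were lost with the length trend removed, at 0.17 for Col4a1 (adjusted p = 0.107) and 0.23 for Col4a2 (adjusted p = 0.072), and without either OENr4a3 library (lowest adjusted p 0.163). The 2 annotations overlap at their starts on opposite strands, and whether counting used the strand is not stated, so reads from that overlap cannot be assigned here.

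Col4a3 and Col4a4 encode chains of the specialised type IV network of kidney glomeruli and lung, in which mutations cause Alport syndrome in humans. Col4a3 (chr1:82586921-82722059, plus strand) had 110 and 97.5 CPM in OENr4a3, against 55.5 and 43.0 CPM in OECtrl. Its partner Col4a4 (chr1:82448423-82586849, minus strand) had 119 and 107 CPM in OENr4a3, against 59.7 and 58.3 CPM in OECtrl. In both genes the lower OENr4a3 value lay well above the higher OECtrl value. Col4a3 rose by a log2 fold change of 1.08 ± 0.138 (SE, adjusted p = 0.00137) and Col4a4 by 0.94 ± 0.107 (SE, adjusted p = 0.000734). With the length trend removed the log2 fold change was 0.80 for Col4a3 (adjusted p = 0.000637) and 0.63 for Col4a4 (adjusted p = 0.00197). Per kilobase Col4a3 reached 10.4 ± 0.877 CPM and Col4a4 10.7 ± 0.795 CPM in OENr4a3 (SD, n = 2), far below the 1061 CPM of Col4a1.

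The remaining head-to-head pair did not pass the test. Col4a5, the chain that completes the specialised network, had 866 and 893 CPM in OENr4a3 and 793 and 673 CPM in OECtrl (0.26, 95% interval 0.03 to 0.49, adjusted p = 0.089). It was called higher without either OECtrl library (0.39, adjusted p = 9.23e-05 without replicate 1, and 0.15, adjusted p = 0.0415 without replicate 2). Col4a6, a chain of smooth muscle and epidermal basement membranes, had 31.2 and 32.2 CPM in OENr4a3 and 32.7 and 27.3 CPM in OECtrl (0.08, 95% interval -0.21 to 0.37, adjusted p = 0.683). Type VIII is a short-chain collagen of blood vessel walls and of the remodelling heart. Its chain Col8a1 (chr16:57624258-57754737, minus strand) had 1562 and 1621 CPM in OENr4a3, against 1314 and 1325 CPM in OECtrl, and rose by 0.27 ± 0.0839 (SE, adjusted p = 0.0454). That call was the nearest to the threshold and was lost in 10 of 15 other fits, among them DESeq2 (adjusted p = 0.0688) and the removal of the length trend (0.07, adjusted p = 0.538), and without OENr4a3 replicate 1 (at 0.377) or replicate 2 (at 0.505). Col8a2 had 27 and 35 reads in OENr4a3 and 14 and 22 in OECtrl (0.58, adjusted p = 0.299).

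Type VI collagen makes beaded filaments around cells, and its usual unit needs chains from Col6a1, Col6a2 and Col6a3. Col6a3 (chr1:90765923-90843971, minus strand) had 97.7 and 107 CPM in OENr4a3, against 61.8 and 34.3 CPM in OECtrl. It rose by a log2 fold change of 1.10 ± 0.219 (SE, adjusted p = 0.0103), and by 0.77 with the length trend removed (adjusted p = 0.00819). The OECtrl libraries differed more from each other than the OENr4a3 libraries did, and the log2 fold change was 1.58 without OECtrl replicate 1 and 0.73 without OECtrl replicate 2. Col6a1 was at 416 and 427 CPM in OENr4a3 and 497 and 401 CPM in OECtrl (-0.09, adjusted p = 0.582), and Col6a2 at 276 and 283 CPM in OENr4a3 and 295 and 248 CPM in OECtrl (0.04, adjusted p = 0.807). Both overlapped between the groups. Without OECtrl replicate 2, Col6a1 was called lower (-0.24, adjusted p = 0.00433), and without OECtrl replicate 1, Col6a2 was called higher (0.17, adjusted p = 0.0182). Col6a6 (chr9:105687809-105828160, minus strand), which is thought able to stand in for Col6a3 in the filament, had 34 and 35 reads in OENr4a3, against 5 and 1 in OECtrl. The ratio of its summed reads was 9.62 (95% counting interval 4.2 to 27.1), and the fitted log2 fold change of 3.25 ± 0.601 (SE, adjusted p = 0.00771) depends on the prior count. Without OECtrl replicate 1 it was 4.84 and without OECtrl replicate 2 it was 2.44. The gene passed the filter on low counts through the OENr4a3 libraries, so a difference was needed for it to be tested at all. Its neighbours Col6a4 and Col6a5 were not tested, with 4 and 1 reads for Col6a4 and 6 and 13 for Col6a5 in OENr4a3, against 2 and 2 for Col6a4 and 3 and 5 for Col6a5 in OECtrl.

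The remaining tested members of the other class did not pass the test. Col18a1, the multiplexin that yields endostatin, had 15.3 and 14.6 CPM in OENr4a3 and 14.3 and 11.7 CPM in OECtrl (0.21, adjusted p = 0.354). Col15a1, the second multiplexin, had 34 and 35 reads in OENr4a3 and 33 and 20 in OECtrl (0.15, adjusted p = 0.799). Col7a1, the chain of the anchoring fibrils of skin, had 11.6 and 9.35 CPM in OENr4a3 and 10.7 and 13.1 CPM in OECtrl (-0.19, adjusted p = 0.448), and was called lower with the trend on transcript length removed (-0.68, adjusted p = 0.0348). Among collagens that span the cell membrane, Col23a1 had 30 and 25 reads in OENr4a3 and 10 and 12 in OECtrl, a summed ratio of 2.09 (95% counting interval 1.26 to 3.6) that fell short of the threshold (log2 fold change 1.10, adjusted p = 0.0802). Col13a1, of the same kind, overlapped between the groups, with 7 and 13 reads in OENr4a3 and 5 and 14 in OECtrl (-0.12, adjusted p = 0.901). Col26a1 (0.51, adjusted p = 0.38) and Col28a1 (-0.20, adjusted p = 0.674) had at most 43 reads in any library.

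Besides Col2a1, Col6a4 and Col6a5, the untested members were Col9a1, Col9a2, Col10a1, Col17a1, Col19a1, Col22a1 and Col25a1. These 10 untested members had 0 to 13 reads in each library. A count of 0 allows up to 3 reads, or 0.163 and 0.164 CPM in OENr4a3 and 0.21 and 0.182 CPM in OECtrl (counting error only). Differences at such counts were not detectable at this depth.

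**Figure D4:**
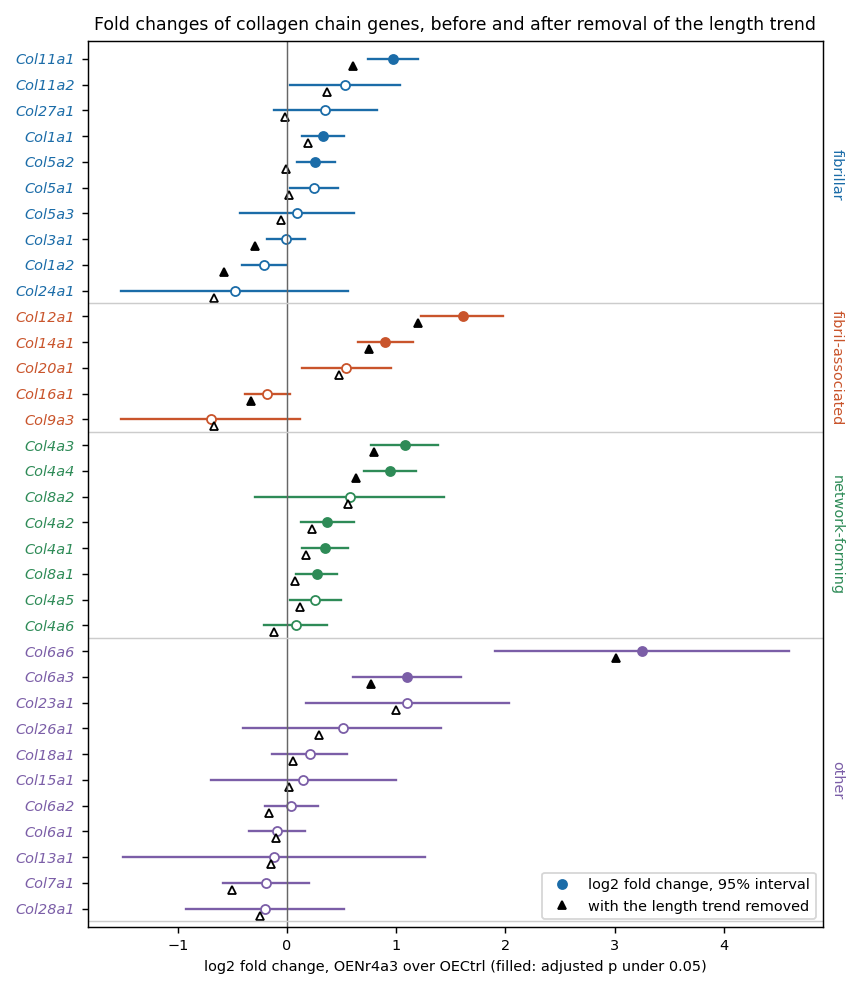
Log2 fold change of OENr4a3 over OECtrl for the 34 tested collagen chain genes by class, with the 95% interval as a bar. Circles are the values as fitted and triangles those with the length trend removed, and filled symbols have an adjusted p under 0.05 (12 circles, all to the right of 0, and 10 triangles, of which 7 lie to the right and 3 to the left).

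Ratios between chains within 1 library were taken per exonic kilobase for 14 pairs, and for 3 of them a chain had under 100 reads in some library. Of the other 11, 8 did not overlap between the groups. Lack of overlap is common here, since the CPM of the groups did not overlap, in one or the other direction, in 68.2% of all tested genes. Col6a3 over Col6a1 showed the widest shift, at 0.0861 and 0.0918 in OENr4a3, against 0.0455 and 0.0313 in OECtrl, a 2.36-fold difference in the ratio. Col12a1 over Col14a1 was 0.502 and 0.482 in OENr4a3, against 0.331 and 0.266 in OECtrl (1.66-fold). Col11a1 and Col5a2 are chains that can share a helix in mixed fibrils. Col11a1 over Col5a2 was 0.137 and 0.143 in OENr4a3, against 0.0918 and 0.0803 in OECtrl (1.63-fold). In each of these pairs the first chain is the longer in exonic length, and the length trend was not removed from the ratios. With it removed, the log2 fold changes were 0.77 for Col6a3 and -0.10 for Col6a1. They were 1.20 for Col12a1 and 0.75 for Col14a1, and 0.60 for Col11a1 and -0.01 for Col5a2.

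The type I ratio of Col1a1 over Col1a2 was 3.40 and 3.13 in OENr4a3, against 2.26 and 2.22 in OECtrl, which is 1.46-fold higher. Its absolute size depends on the length used. The deposited exonic length of Col1a2 is 12426 bases, whereas its longest coding transcript in GENCODE M21 has 5348 bases. Per base of the longest coding transcript the ratio was 1.62 and 1.49 in OENr4a3, against 1.08 and 1.06 in OECtrl. Col3a1 over Col1a1 was 0.964 and 1.00 in OENr4a3, against 1.21 and 1.29 in OECtrl, without overlap (0.789-fold). By transcript length that ratio was 1.54 and 1.60 in OENr4a3, against 1.92 and 2.05 in OECtrl. Col1a1, Col1a2 and Col3a1 differ in exonic length, and with the length trend removed their log2 fold changes were 0.19, -0.58 and -0.29.

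The partner chains of the ubiquitous and specialised type IV networks had ratios that overlapped between the groups. Col4a1 over Col4a2 was 1.57 and 1.51 in OENr4a3 and 1.53 and 1.61 in OECtrl. Col4a3 over Col4a4 was 0.982 and 0.968 in OENr4a3 and 0.989 and 0.785 in OECtrl, and Col5a1 over Col5a2 was 0.285 and 0.292 in OENr4a3 and 0.310 and 0.274 in OECtrl. Small shifts without overlap were found for Col5a1 over Col1a1 (0.220 and 0.225 in OENr4a3, 0.240 and 0.231 in OECtrl), for Col4a5 over Col4a6 (33.0 and 32.9 in OENr4a3, 28.7 and 29.2 in OECtrl) and for Col6a1 over Col6a2 (2.87 and 2.87 in OENr4a3, 3.21 and 3.08 in OECtrl). Per base of the longest coding transcript, Col6a1 over Col6a2 was 1.45 and 1.45 in OENr4a3, against 1.63 and 1.56 in OECtrl. All these ratios are values per library, with no test of their own.

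**Figure D5:**
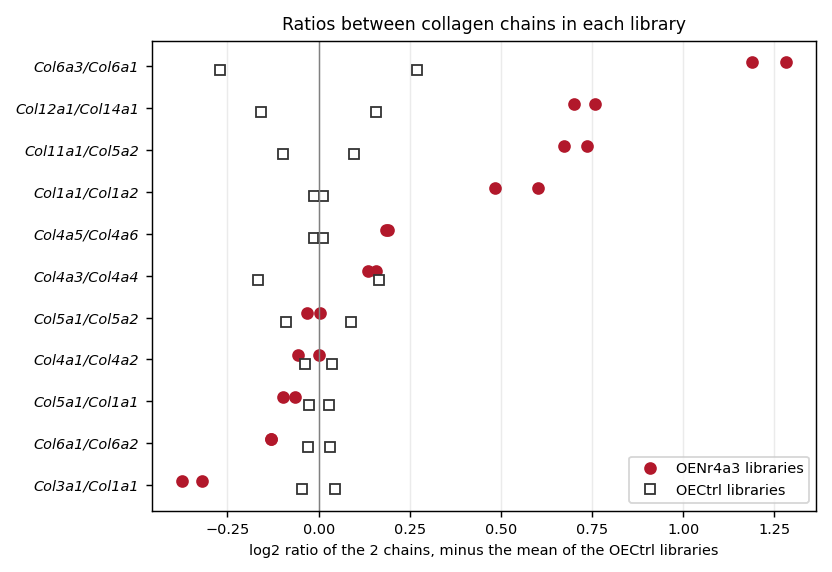
Log2 ratio of 2 collagen chains per exonic kilobase in each library, minus the mean of the OECtrl libraries, for the 11 pairs with at least 100 reads throughout. Filled circles are OENr4a3 libraries and open squares OECtrl libraries. The shifts run from 1.24 for Col6a3 over Col6a1 to -0.34 for Col3a1 over Col1a1, with the length trend not removed.

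Collagen chains need a long series of other proteins, and 72 genes of that series were examined as 7 lists. Of the 64 tested, 23 rose (35.9%, against 12.0% of all tested genes) and 5 fell (7.81%, against 11.0%), with a median log2 fold change of 0.20. With the length trend removed the counts were 23 higher and 7 lower. Without OENr4a3 replicate 2, 14 were called higher and 1 lower. The count of lower calls was 1 without OENr4a3 replicate 1, 11 without OECtrl replicate 1 and 8 without OECtrl replicate 2. Among the 18 genes of chain folding and modification, all tested, 5 rose and none fell by edgeR (median 0.14). In the lower direction 1 of them had an unadjusted p under 0.05, and DESeq2 and limma-voom called 0. P3h2, a prolyl 3-hydroxylase that acts on type IV collagen, had 25.3 and 27.3 CPM in OENr4a3, against 8.44 and 5.50 CPM in OECtrl (1.93 ± 0.191 SE, adjusted p = 0.000334). Plod1, a lysyl hydroxylase, had 227 and 220 CPM in OENr4a3, against 119 and 118 CPM in OECtrl (0.92 ± 0.0957 SE, adjusted p = 0.000432), and P4ha3, a prolyl 4-hydroxylase subunit, averaged 29.8 CPM in OENr4a3 and 18.7 CPM in OECtrl (0.67, adjusted p = 0.0147, and 0.0576 without OENr4a3 replicate 2). P4ha1 (0.34, adjusted p = 0.0366) and P3h3 (0.33, adjusted p = 0.0485) were the others called higher, and both calls were lost without either OENr4a3 library (lowest adjusted p 0.19 for P4ha1 and 0.352 for P3h3), that of P3h3 also in DESeq2 (0.0641). Serpinh1, the collagen chaperone HSP47, named after its values were seen, was at 1399 ± 10.5 CPM in OENr4a3 and 1500 ± 3.42 CPM in OECtrl (SD, n = 2 each; -0.10, adjusted p = 0.399).

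Of 7 secretion genes 2 rose and none fell in edgeR, DESeq2 or limma-voom as fitted (0 at an unadjusted p under 0.05), whereas with the length trend removed 1 was called higher and 1, Klhl12, lower (-0.46, adjusted p = 0.0224, against 0.498 as fitted). The 2 that rose were Sec24d, a coat protein of the vesicles that leave the endoplasmic reticulum (0.46, adjusted p = 0.0255), and Mia3, the receptor TANGO1 that loads collagen into them (0.35, adjusted p = 0.0369). Both calls were lost without either OENr4a3 library, with adjusted p of 0.139 and 0.255 for Sec24d and 0.306 and 0.415 for Mia3 (without replicates 1 and 2 in that order), and Mia3 also with the length trend removed (0.129). Tmem38b, an ion channel of that compartment, was at -0.24 (adjusted p = 0.146). In propeptide removal 3 of 7 tested genes rose, and 0 were lower in edgeR, DESeq2, limma-voom or at an unadjusted p under 0.05. Tll1, a protease of the BMP1 family that trims procollagen ends, had 467 and 536 reads in OENr4a3, against 54 and 51 in OECtrl (3.04 ± 0.176 SE, adjusted p = 1.64e-05). Adamts14, a procollagen N-proteinase, had 25.9 and 23.3 CPM in OENr4a3, against 9.83 and 7.48 CPM in OECtrl (1.51, adjusted p = 0.000577), and Adamts2, of the same function, 479 and 486 CPM in OENr4a3, against 359 and 300 CPM in OECtrl (0.55, adjusted p = 0.00953, and 0.077 and 0.0925 without OENr4a3 replicates 1 and 2).

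Crosslinking enzymes of the lysyl oxidase family moved in both directions, with 3 of 5 higher and 1 lower. Loxl3 had 248 and 231 CPM in OENr4a3, against 126 and 117 CPM in OECtrl (0.98 ± 0.101 SE, adjusted p = 0.000409). Loxl1 was also called higher with the length trend removed (0.29, adjusted p = 0.0455, against 0.123 as fitted). Loxl2 rose by 0.35 (adjusted p = 0.021, lost without OENr4a3 replicate 1 at 0.349 or replicate 2 at 0.2) and Loxl4 by 0.81 (adjusted p = 0.0252, and 0.0602 with no low-count filter). Lox, the most abundant of the family in reads and named after its values were seen, fell to 4622 and 4256 CPM in OENr4a3, against 5343 and 5867 CPM in OECtrl (-0.34, adjusted p = 0.0254, lost without OENr4a3 replicate 1 at 0.181 or replicate 2 at 0.413). Among proteases that cleave collagen, 2 of 6 tested rose and 1 fell. Mmp8 was also called higher with the length trend removed (0.80, adjusted p = 0.0443, against 0.0752 as fitted). Mmp13, a collagenase, fell to 32 and 45 reads in OENr4a3, against 126 and 135 in OECtrl (-1.97 ± 0.235 SE, adjusted p = 0.000946). Mmp2, a gelatinase, rose by 0.35 (adjusted p = 0.028, lost without OENr4a3 replicate 1 at 0.247 or replicate 2 at 0.434). Fap, a protease of activated fibroblasts, had 30 and 27 reads in OENr4a3, against 2 and 3 in OECtrl, a summed ratio of 9.54 (95% counting interval 3.86 to 30.5, adjusted p = 0.00539). As with Col6a6, Fap passed the filter on low counts through the OENr4a3 libraries, so a difference was needed for it to be tested.

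Collagen is sensed and taken up through receptors at the cell surface. Of 10 tested receptors 5 rose and 1 fell (median 0.54). Itga2, Itga1, Itga10 and Itga11 encode alpha chains of integrins that bind collagen, of which 2 rose, 1 fell and 1 was not called. Itga2 had 19.8 and 15.6 CPM in OENr4a3, against 3.18 and 2.09 CPM in OECtrl (2.76 ± 0.228 SE, adjusted p = 0.000155). Itga1 had 103 and 106 CPM in OENr4a3, against 55.8 and 39.6 CPM in OECtrl (1.13 ± 0.151 SE, adjusted p = 0.00176, and 0.65 with the length trend removed). Itga10 fell to 4.02 and 4.45 CPM in OENr4a3, against 7.89 and 6.22 CPM in OECtrl (-0.73, adjusted p = 0.0362), a call lost in DESeq2 (0.0893), without OENr4a3 replicate 1 (0.199) or 2 (0.107) and without OECtrl replicate 1 (0.077). Itga11 overlapped between the groups, with 10.1 and 15.6 CPM in OENr4a3 and 11.3 and 6.94 CPM in OECtrl (0.50, adjusted p = 0.185). Itga11 was called higher without OENr4a3 replicate 1 (0.79, adjusted p = 0.0237) or OECtrl replicate 1 (0.89, adjusted p = 0.0156). Mrc2, the receptor Endo180 that takes up collagen fragments, averaged 1253 ± 4.81 CPM in OENr4a3 and 835 ± 47.1 CPM in OECtrl (SD, n = 2 each; 0.59, adjusted p = 0.00331). The other receptors called higher were Ddr2, a receptor tyrosine kinase for collagen (0.62, adjusted p = 0.0125, and 0.0652 without OENr4a3 replicate 1), and Adgrg6, an adhesion receptor (0.71, adjusted p = 0.0147, and 0.054 without OENr4a3 replicate 2). Of 11 tested proteins that bind fibrils 3 rose and 2 fell (median 0.23). Ogn, the small proteoglycan osteoglycin, had 613 and 554 CPM in OENr4a3, against 186 and 208 CPM in OECtrl (1.57 ± 0.105 SE, adjusted p = 4.1e-05). Tnxb, the tenascin that spaces fibrils, had 54.9 and 54.2 CPM in OENr4a3, against 24.2 and 16.8 CPM in OECtrl (1.42, adjusted p = 0.000763). Fmod, fibromodulin, fell to 67.6 and 79.6 CPM in OENr4a3, against 115 and 102 CPM in OECtrl (-0.56, adjusted p = 0.0129, lost without OENr4a3 replicate 1 at 0.263 or replicate 2 at 0.0526). Bgn, biglycan, rose by 0.31 (adjusted p = 0.0388) and Lum, lumican, fell by 0.40 on the log2 scale (adjusted p = 0.02), and both calls were lost without either OENr4a3 library (lowest adjusted p 0.235 for Bgn and 0.287 for Lum), that of Bgn also in DESeq2 (0.0557). With the length trend removed the Bgn call was lost (0.19, adjusted p = 0.0877) and Dcn, decorin, was called lower (-0.37, adjusted p = 0.0126, against 0.0665 as fitted). P4ha1, P3h3, Klhl12, Loxl1, Mmp8, Itga10, Itga11, Ddr2, Adgrg6, Bgn, Lum and Dcn were named after their values were seen. Of the 28 calls among the 64 tested genes of the 7 lists, 12 held in all 15 other fits.

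Markers of other cells also differed between the groups, and their counts of lower calls are to be read against the 11.0% of all tested genes that were called lower, and of higher calls against 12.0%. The 8 mesothelial markers summed to 474 and 441 CPM in OENr4a3, against 985 and 1055 CPM in OECtrl, with 6 of 8 called lower. Macrophage markers summed to 615 and 596 CPM in OENr4a3 and 926 and 913 CPM in OECtrl (2 of 6 lower, and 3 with the length trend removed), and smooth muscle and myofibroblast markers to 1821 and 1874 CPM in OENr4a3 and 2523 and 2639 CPM in OECtrl (2 of 4 lower). Lyz2 gave most of the macrophage sum (531 and 514 CPM in OENr4a3, 806 and 815 CPM in OECtrl). Acta2 gave most of the muscle sum (1565 and 1598 CPM in OENr4a3, 2119 and 2198 CPM in OECtrl). The 5 pericyte markers summed to 888 and 945 CPM in OENr4a3 and 675 and 532 CPM in OECtrl. Of 4 tested, 3 were called higher and 1 lower, or 2 higher and 1 lower with the length trend removed. Among the 3 is Abcc9, with 19 and 20 reads in OENr4a3 and 3 and 7 in OECtrl. It passed the filter on low counts through the OENr4a3 libraries, so a difference was needed for it to be tested. The Abcc9 call was lost in DESeq2 (adjusted p = 0.153). Pdgfrb gave most of the pericyte sum (848 and 910 CPM in OENr4a3, 656 and 519 CPM in OECtrl). Rgs5 was the pericyte marker called lower (log2 fold change -1.38, adjusted p = 0.0274). Vim, Myh6, Lyz2, Acta2, Pdgfrb, Abcc9 and Rgs5 were named after their values were seen. The 6 endothelial markers summed to 42.6 and 48.5 CPM in OENr4a3 and 51.7 and 53.8 CPM in OECtrl (1 of 6 lower). Hepatocyte markers summed to 0.22 and 0.223 CPM in OENr4a3, against 47.0 and 35.5 CPM in OECtrl, with all 6 called lower, or 5 with the length trend removed. They had at most 3 reads in each OENr4a3 library, so they passed the filter on low counts through the OECtrl libraries, and a difference was needed for them to be tested. Schwann cell markers stayed at or below 1.97 CPM in each library, with Sox10 at 0 reads. Of the 7 fibroblast markers 2 were called higher and 3 lower, or 2 and 2 with the length trend removed. The part of these cells in the collagen differences was not tested.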

How the data were processed

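Per the labels' protocols, stranded libraries made after rRNA depletion were read from both ends, although the molecule field says polyA RNA. The authors deposited whole-number counts per Ensembl gene, FPKM and exonic lengths in a single table, per the file headers. The submitters' processing notes name mm10 as the build and, as tools, featureCounts, Subread 1.5.1, Trimmomatic 0.36 and SAMtools. Aligner and strand setting were not found in these sources. In the 3 FPKM columns that name 1 library each (1 further column, with no replicate number, was not used), 166077 of 166077 deposited FPKM values equalled those computed from the counts and exonic lengths within 0.0051, and FPKM entered 1 alternative. Table coordinates matched GENCODE M21 in start and end for 1494 of 52083 shared identifiers, so printed gene positions come from GENCODE M21. Among the members called, genes on the other strand overlap Col4a1, Col4a2, Col4a3, Col6a6, Col12a1 and Col14a1. Members not called are overlapped too, among them Col4a5, Col4a6 and Col5a1, and reads of such a pair may not be separated.

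The main tool was edgeR 4.0.16 in R 4.3.3 (filterByExpr, TMM factors 0.9857 and 0.9842 in OENr4a3 and 1.014 and 1.017 in OECtrl, glmQLFit and glmQLFTest, two-sided, no replicate block). P-values were adjusted by Benjamini-Hochberg over 15029 genes, and an adjusted p under 0.05 was called. The biological coefficient of variation was 0.0955. Each library counted as a replicate. Between replicates, the chi-square per degree of freedom was 2.55 in OENr4a3 and 15.5 in OECtrl. That is spread beyond counting error, and it cannot show whether the libraries were separate cultures. SE is the log2 estimate divided by the root of its F statistic. Length trends were removed per library through offsets (lowess of log2 CPM on log10 exonic length, span 0.3). Counting intervals are exact binomial (Clopper-Pearson), at 95%, and cover counting error only. Scripts were tested on simulated data with known changes and a length trend.

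The members, the gene lists and the tests were chosen with earlier results of these data known. Every member is named, with values in each library for those called and for the most abundant of each class, and of each list of other collagen genes the 3 tested genes with the smallest p, and others only where said. Other fits used DESeq2 1.42.0, limma-voom (limma 3.58.1), other size factors, filters, spans and thresholds, a replicate block, and each library left out. Length with GC content and GENCODE transcript length were added after the data were seen.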

Additional observations from a re-analysis of the deposited data

How the results depend on the processing

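Of the 12 collagen genes called higher, 7 (Col4a3, Col4a4, Col6a3, Col6a6, Col11a1, Col12a1 and Col14a1) kept their call and direction in all 15 other fits, and 5 (Col1a1, Col4a1, Col4a2, Col5a2 and Col8a1) lost it in at least 1. With the length trend removed at a span of 0.3 or 0.7, or together with GC content, 7 collagen genes were called higher and 3 lower (1 fibrillar, 2 fibril-associated, 2 network-forming and 2 other higher, 2 fibrillar and 1 fibril-associated lower). With transcript length in place of exonic length the counts were 7 and 4 (1 fibrillar, 2 fibril-associated, 2 network-forming and 2 other higher, 2 fibrillar, 1 fibril-associated and 1 other lower). Upper-quartile factors or no filter on low counts left 3 network-forming calls, and no filter left 1121 higher and 757 lower genes in all. At an adjusted p under 0.01, 552 genes were higher and 359 lower, with 6 collagen genes higher (1 fibrillar, 2 fibril-associated, 2 network-forming and 1 other) and 12 pathway genes higher and 1 lower.

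Leaving out 1 library in turn, which assumes that the lone library varies like the other group, gave 755 to 3672 higher and 448 to 3461 lower genes. The fewest came without an OENr4a3 library and the most without OECtrl replicate 1. Collagen genes then ranged from 7 to 17 higher and 0 to 2 lower. By class the higher calls ranged from 1 to 5 (fibrillar) and 2 to 6 (network-forming), and the lower calls from 0 to 1 in the fibrillar, fibril-associated and other classes. Pathway genes ranged from 14 to 31 higher and 1 to 11 lower. The cause was not tested.

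The replicate numbers are shared between the groups, and deviations of libraries with the same number had a correlation of -0.078 across genes. That value compares a single difference in each group. It cannot tell whether libraries of the same number share a culture or a batch. With the replicate block, edgeR called 2021 genes higher and 1830 lower, and 10 collagen genes higher and 0 lower (edgeR without the block gave 12 and 0, DESeq2 10 and 0).

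The log2 fold changes that turned sign in some fit ran from -0.20 (Col28a1) to 0.35 (Col27a1) as fitted. Col5a2, a member called higher as fitted (0.26), was among them. Col3a1 stood at 0.00 without the filter and ranged from -0.05 to 0.03 with 1 library left out. After removal of the length trend at a span of 0.3, at 0.7, with GC content and by transcript length, in that order, Col4a6 stood at -0.12, -0.12, -0.12 and -0.25, Col5a2 at -0.01, -0.01, -0.02 and -0.07, Col5a3 at -0.06, -0.06, -0.13 and -0.21, Col6a2 at -0.17, -0.18, -0.21 and -0.06, and Col27a1 at -0.02, -0.01, -0.06 and -0.03. Col18a1 stood at -0.01 with GC content and -0.05 by transcript length. By transcript length alone Col4a5 stood at -0.06, Col5a1 at -0.18 and Col15a1 at -0.06. Over the 4 fits that leave out 1 library, Col4a6 ranged from -0.05 to 0.22, Col6a1 from -0.24 to 0.07, Col6a2 from -0.08 to 0.17, Col13a1 from -0.62 to 0.67, Col15a1 from -0.26 to 0.67 and Col28a1 from -0.48 to 0.11.

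The collagen share in OENr4a3 was 3.96% without mitochondrially encoded genes. On the deposited FPKM, with OENr4a3 replicate 2 alone on that side, it was 1.79% in OENr4a3 and 1.38% in OECtrl. With 2 libraries a group, the precision of each fold change rests on the few degrees of freedom and on the OECtrl pair, which differed more than the OENr4a3 pair.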
